A study of Mus musculus with 8 samples.

Results

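The genes described here are a module of 38 cell cycle genes among the 31053 genes of the deposited matrices. They were taken by name, as every gene of the P10 and 8-week feature lists whose symbol is on a fixed list, and all 38 were found at both ages. Of these, 22 act mainly in G2 and mitosis (G2/M members), 14 act mainly in S phase (S members), and Stmn1 and H2afz are broadly expressed and are given on their own.

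The cells came from whole intervertebral discs, lumbar and tail, of Tagln-CreERt2;R26tdTomato mice, in which tamoxifen given on day 5 activates a Cre driven by the smooth muscle gene Tagln. Mice of 2 ages, day 10 (P10) and 8 weeks, carried the same alleles and received the same tamoxifen, so age is the comparison the design holds, and there was no Cre-negative or untreated group. Each age has 4 samples in GEO but 1 matrix, with no map from cells to samples, so each age was treated as 1 library. Whole discs were digested, so the cells of the nucleus pulposus (NP, the soft core, which derives from the notochord), of the annulus, of cartilage and of attached tissue were captured together.

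A dividing cell copies its DNA in S phase, when the MCM helicase opens the double strand, PCNA holds the polymerases on it and ribonucleotide reductase supplies nucleotides. It then enters G2 and mitosis, in which CDK1 with B-type cyclins, the Aurora and Polo kinases, kinesin motors and the anaphase-promoting complex condense, align and separate the chromosomes. Disc cells of young mice divide as the tissue grows, and NP cells of adult discs are known to divide little.

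Promoters of these genes are known to hold a few short motifs that cell cycle regulators read: the CCAAT box, the cell cycle genes homology region (CHR, searched as TTTGAA or TTCGAA) and E2F sites (searched as TTTCCCGC, TTTCGCGC, TTTGCCGC or TTTGGCGC). RefSeq windows from 250 bases before to 50 bases after the start site (GRCm38.p6) matched 31 of the 38 genes, and 7 (Stmn1, H2afz, Ccna2, Aurkb, Tpx2, Mcm4 and Ccne2) had no window. A member with more than 1 window, such as Prc1 or Mcm7, was counted once. It was given a motif if any of its windows held it, whereas the shares of all are per window. On either strand, a CHR was found in 15 of 19 G2/M members (78.9%) and in 2 of 12 S members (16.7%), against 19.2% of all 32851 windows. An E2F match was found in 6 of 12 S members (50%, namely Mcm3, Mcm5, Mcm6, Mcm7, Cdc6 and Pclaf) and in 1 of 19 G2/M members (Cdk1), against 2.26% of all windows. The CCAAT box, in 37.4% of all windows, was in 16 of 19 G2/M members and in 9 of 12 S members. The G2/M members thus differ from the S members in which of these letters their windows hold: 14 of 19 held both a CHR and a CCAAT box, against 7.52% of all windows, while Birc5 and Nusap1 among G2/M members and Tyms and Ccne1 among S members held none of the 3. The promoters of 5 genes follow, as 250 bases 5′ to 3′ on the gene's strand ending at the start site, with motif matches on either strand in capitals.
Top2a: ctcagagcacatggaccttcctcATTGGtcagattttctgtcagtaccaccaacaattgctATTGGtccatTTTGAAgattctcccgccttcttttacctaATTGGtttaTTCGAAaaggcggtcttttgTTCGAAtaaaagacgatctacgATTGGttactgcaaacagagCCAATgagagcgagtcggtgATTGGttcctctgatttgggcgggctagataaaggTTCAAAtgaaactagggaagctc
Ube2c: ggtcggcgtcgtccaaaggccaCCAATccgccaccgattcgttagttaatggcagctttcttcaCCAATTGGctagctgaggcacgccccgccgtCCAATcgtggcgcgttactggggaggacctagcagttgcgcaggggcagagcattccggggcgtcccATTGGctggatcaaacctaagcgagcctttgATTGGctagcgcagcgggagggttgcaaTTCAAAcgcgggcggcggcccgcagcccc
Cdk1: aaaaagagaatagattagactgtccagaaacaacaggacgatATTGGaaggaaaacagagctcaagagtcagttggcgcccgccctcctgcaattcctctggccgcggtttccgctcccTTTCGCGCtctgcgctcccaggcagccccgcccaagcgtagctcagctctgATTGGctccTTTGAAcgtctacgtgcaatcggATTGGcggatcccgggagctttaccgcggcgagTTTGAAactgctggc
Mcm6: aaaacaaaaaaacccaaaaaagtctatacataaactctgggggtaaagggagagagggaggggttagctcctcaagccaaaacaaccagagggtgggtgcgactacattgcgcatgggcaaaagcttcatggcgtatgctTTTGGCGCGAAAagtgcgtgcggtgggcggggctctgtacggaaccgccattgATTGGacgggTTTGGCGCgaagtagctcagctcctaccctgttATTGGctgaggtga
Mcm5: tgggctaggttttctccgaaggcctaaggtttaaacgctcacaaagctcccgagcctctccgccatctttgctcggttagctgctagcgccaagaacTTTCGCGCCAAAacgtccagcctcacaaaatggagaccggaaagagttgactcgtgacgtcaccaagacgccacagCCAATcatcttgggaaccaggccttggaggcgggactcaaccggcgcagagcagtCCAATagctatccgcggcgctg
These 5 were chosen because the values below turn on them and because they show the kinds of promoter side by side. Top2a (chr11:99024190-99024439, minus strand) has 4 CHR and 6 CCAAT matches, and Ube2c (chr2:164769679-164769928, plus strand) has 1 CHR and 6 CCAAT matches. Cdk1 (chr10:69352913-69353162, minus strand) holds all 3 motifs. Mcm6 (chr1:128359706-128359955, minus strand) and Mcm5 (chr8:75109259-75109508, plus strand) hold E2F and CCAAT matches and no CHR. Where E2F matches on opposite strands overlap, as in Mcm5 and Mcm6, they appear as 1 longer stretch of capitals. Different motifs share 2 bases in all, counted over the windows of the 31 genes. A match of letters is a description and not a bound site.

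Depth was counted in UMIs (unique molecular identifiers, each 1 captured RNA molecule), of which the P10 library had 143203550 over 7690 barcodes and the 8-week library 115097999 over 7597. After filters 6999 and 6342 cells were kept, with medians of 18300 and 14684 UMIs, and 10 of the kept barcode sequences occurred in both libraries. Cells were clustered without the 38 genes and without other genes that follow them, and clusters were named "-like" from marker lists. The NP-like class (315 cells at P10, 2301 at 8 weeks) held the NP markers Car3, Krt8, Krt19 and T at both ages, with Car3 at 20499 and 18308 UMIs per 1000000, while Shh was near 0 (0.71 and 1.23). It and the chondrocyte-like class (4961 and 2007 cells) are made up of mostly different clusters at the 2 ages, so a change in the cells and a change in which cells were captured cannot be told apart. With 1 library per age there is no replicate spread and no test. All intervals below are exact 95% intervals and cover counting error only, and a gene enters a comparison when its 2 sums add up to 100 UMIs or more.

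Over all kept cells, levels of the mitotic genes were mostly lower at 8 weeks and that of the replication clamp gene higher. A level is given as CPM, the UMIs of a gene for every 1000000 UMIs that its group of cells held in genes. Top2a (DNA topoisomerase II alpha, chr11:98992943-99024189) had 42.9 CPM (41.8 to 44.0) at P10 and 33.2 (32.1 to 34.3) at 8 weeks. Mki67 (the proliferation marker Ki-67, chr7:135689784-135716361) stayed between 24.7 and 26.3 CPM, and Cdk1 went from 32.4 to 26.1. Cenpf, a kinetochore protein, went the other way, from 19.4 to 33.5 CPM. Pcna (the sliding clamp of DNA polymerase, chr2:132249162-132253314) had 29.6 CPM (28.7 to 30.5) at P10 and 55.6 (54.2 to 57.0) at 8 weeks. So the members did not move as 1 block even before cells were split into classes.

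The summed level of the 22 G2/M members separated the disc classes far more than that of the 14 S members did. At P10 the NP-like cells stood at 1163 CPM (1138 to 1189), the endothelial-like at 771 (738 to 805), the chondrocyte-like at 393 (389 to 397), the tendon fibroblast-like at 183 (176 to 191) and the hypertrophic chondrocyte-like at 37.8 (32.2 to 44.1). At 8 weeks the NP-like cells stood at 616 (609 to 624), the chondrocyte-like at 383 (376 to 389), the endothelial-like at 343 (319 to 368), the hypertrophic at 38.2 (31.9 to 45.4) and the tendon fibroblast-like at 17.5 (15.3 to 20.1). The order of neighbours is clear of counting error among these 5 classes at each age, but these intervals do not cover how few cells hold the UMIs. The highest level at P10 was that of an unnamed cluster of 55 cells led by the muscle-lineage genes Cdh15, Des and Pax7, at 2561 CPM (2431 to 2697). The S sums of the same 5 classes ran from 98.5 to 423 CPM at P10 and from 139 to 312 at 8 weeks. At 8 weeks the chondrocyte-like cells (312, 306 to 318) and the endothelial-like cells (302, 279 to 325) had the highest S sums of the 5 and did not differ beyond counting error.

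**Figure D1:**
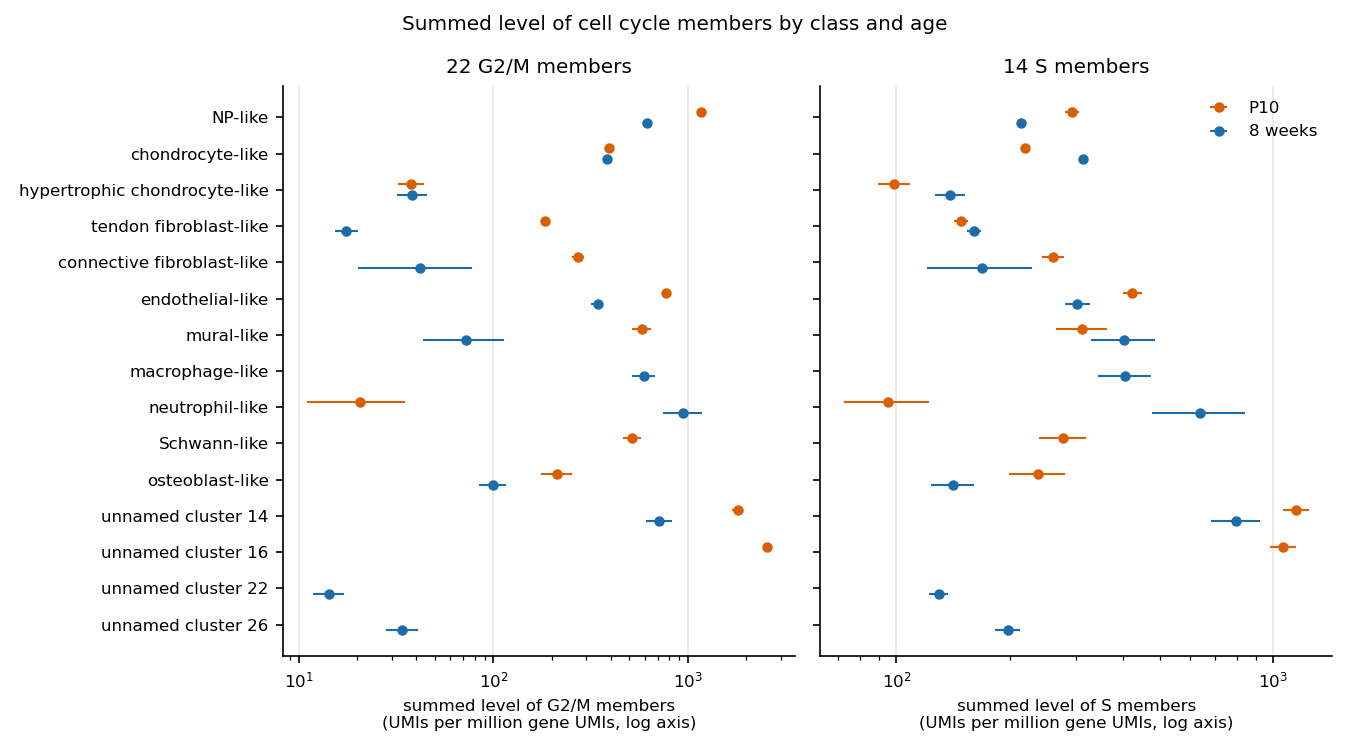
Summed level of the 22 G2/M members (left) and of the 14 S members (right) in each class or unnamed cluster with at least 20 cells at an age, in UMIs per 1000000 gene UMIs on a log axis, with P10 in orange and 8 weeks in blue and bars as exact 95% Poisson intervals. NP-like cells go from 1163 to 616 and tendon fibroblast-like cells from 183 to 17.5 on the left, while on the right the tendon fibroblast-like cells stay between 149 and 161.

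These sums came from few cells. In the NP-like class 50% of the G2/M UMIs lay in 11 of 315 P10 cells and in 29 of 2301 8-week cells, and in the chondrocyte-like class in 84 of 4961 and 21 of 2007. In the endothelial-like class 8 of 120 P10 cells held 50%, and 3 of 130 8-week cells held 54.1%. The 8-week order of chondrocyte-like and endothelial-like cells is thus not settled. The 8-week neutrophil-like class shows the limit of such a sum: its 941 CPM rest on 28 cells, of which 1 held 70 of the 75 UMIs.

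In NP-like cells the G2/M members were lower at 8 weeks as a group. Of 22 members measured, 10 were at least 2-fold lower and none was 2-fold higher, beside 3.05% of 11327 genes lower and 15.2% higher in the same comparison. Their median log2 ratio was -0.94, against 0.36 for all genes, and the summed ratio was -0.92 (-0.95 to -0.88), or -1.28 relative to the median gene. The number past 2-fold is not firm: it was 3 of 22 after each cell was thinned to 3000 UMIs and 18 of 22 with the median gene set to 0.

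Among the mitotic cyclins and kinases, Ccnb1 (cyclin B1) went from 54.4 to 19.4 CPM, a log2 ratio of -1.49. Ccna2 (cyclin A2, which also acts in S phase) was at -1.36, Aurka at -1.32 and Plk1, the Polo-like kinase, at -1.03. Cdk1, the kinase that drives entry into mitosis, went from 71.4 to 41.4 CPM, at -0.79 (-0.93 to -0.64), and Ccnb2 was at -0.81. Of these cyclins and kinases among the members, Aurkb alone, at -0.49, had a ratio above that of Cdk1, and Ccnb2 lay inside the interval of Cdk1.

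Of the members that carry chromosomes through mitosis, Birc5 (survivin, of the chromosomal passenger complex, chr11:117849251-117855743) went from 89.1 to 38.7 CPM, at -1.20 (-1.34 to -1.07). Its partner Cdca8 (borealin) was at -1.17. The spindle proteins Prc1, Nusap1 and Tpx2 were at -1.21, -1.01 and -0.91, and the kinesin Kif2c at -1.26. Cenpa, the centromeric histone, was at -0.74, the checkpoint kinase Bub1 at -0.67, the kinesin Cenpe at -0.66 and Cenpf at -0.54. The kinesin Kif11 alone was not below 0, at 0.02. All of these but Kif11 were below both 0 and the median gene.

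Of the members used as proliferation markers, Ube2c, Top2a and Mki67 had different ratios, all below 0, while the S member Pcna, given below, was above 0. Ube2c, which encodes the ubiquitin-conjugating enzyme of the anaphase-promoting complex, went from 141 to 63.9 CPM, at -1.15 (-1.25 to -1.04). Top2a went from 99.7 to 50.9 CPM, at -0.97 (-1.09 to -0.85), and Mki67 from 62.8 to 42.2, at -0.57 (-0.72 to -0.42). The interval of Mki67 does not overlap those of Ube2c and Top2a. These intervals cover counting error only, and most G2/M UMIs of this class lay in few cells. Whether the markers differ beyond the spread between cells or libraries was thus not tested.

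Most S members of the NP-like cells were also lower at 8 weeks, with 11 of 13 below 0. Of 13 measured (Cdc6 had too few UMIs), 3 were at least 2-fold lower, Mcm3 at -1.5, Mcm5 at -1.36 and Tyms (thymidylate synthase) at -1.06, and none was 2-fold higher, beside 3.05% of genes lower and 15.2% higher. Rrm1, the large subunit of ribonucleotide reductase, went from 68.9 to 40.1 CPM (-0.78), while the small subunit Rrm2, whose expression is known to be tied to S phase, went from 21.3 to 31.7 (0.58). Pcna went from 34.2 to 46.0 CPM, at 0.43 (0.24 to 0.63), close to the median gene. Their summed ratio was -0.46 (-0.53 to -0.39), from 293 to 213 CPM. Mcm6 was at -0.48 and Mcm4 at -0.17, so the 6 helicase subunits did not share 1 ratio.

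In chondrocyte-like cells the G2/M members barely differed between the ages. None of 22 was 2-fold lower or higher, beside 4.64% of 12856 genes lower and 29.5% higher, and the median was -0.11 against 0.56 for all genes. The summed ratio was -0.04 (-0.07 to -0.01), and it was between 0.01 and 0.37 in 5 other groupings of the cells and -0.15 in 1, so its sign is not settled. Relative to the median gene it was -0.60. Top2a was at 41.4 CPM at P10 and 37.6 at 8 weeks, Cdk1 at 31.5 and 28.6, and Mki67 at 19.8 and 23.9. Cenpf had the highest ratio, 0.98, going from 15.6 to 30.9 CPM, and Cdca8 the lowest, at -0.52.

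The S members of the chondrocyte-like cells were higher as a group on the CPM scale but not against other genes. Pcna went from 27.5 to 72.6 CPM, at 1.40 (1.32 to 1.48), and Mcm4 from 11.8 to 24.7, at 1.07, the 2 of 14 that were at least 2-fold higher, beside 29.5% of genes higher and 4.64% lower. Mcm6 (chr1:128331590-128359664) went from 38.7 to 66.5 CPM, at 0.78, and Rrm1 was at 0.66. The G1/S cyclin Ccne1 was the 1 member at least 2-fold lower, going from 8.69 to 3.94 CPM (-1.14). The summed ratio was 0.51 (0.47 to 0.54), but -0.05 with the median gene set to 0 and -0.17 with TMM factors, so these members were level with the other genes of the class.

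In tendon fibroblast-like cells the G2/M members were nearly gone at 8 weeks. Top2a went from 282 UMIs (19.7 CPM) at P10 to 9 UMIs (0.75 CPM), Birc5 from 238 to 3 UMIs and Cdk1 from 187 to 3. All 11 members with enough UMIs were at least 2-fold lower, beside 8.52% of 9330 genes lower and 15% higher. Their median was -4.55 against 0.13 for all genes. These members reached the minimum mostly through their P10 UMIs. Members low at P10 could hardly enter, so the minimum favours low ratios in this count and median. The summed ratio, taken over all G2/M members without a minimum, was -3.39 (-3.59 to -3.18). The 11 others had too few UMIs to be compared alone. A minimum of 300 UMIs or thinning to 3000 UMIs left none past 2-fold, because these settings limit how many members are measured.

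The 8-week cells of this name rest on cluster 23, which has none of the tendon markers among its 10 leading genes, whereas cluster 4, at P10, is led by Thbs4, Tnmd and Col1a1 among others. Tnmd, which marks tendon cells, went from 3215 to 738 CPM between the ages, and Kera from 89.4 to 0.66. In 5 of 6 other groupings no 8-week class of this name remained, so a comparison of the same cell type at both ages is not assured. When the cell cycle genes were kept in the clustering, 0.13% of the P10 tendon fibroblast-like cells were G2/M-marked in place of 2.65%. The 22 marked P10 cells had a median doublet score of 0.133, against 0.018 in unmarked ones, and no P10 cell was called a doublet. The chondrocyte marker Col9a3 stood at 1755 CPM in marked and 537 in unmarked cells, and Tnmd at 2534 and 3247. The part of doublets in the G2/M ratio was not tested.

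The S members of these cells did not follow the G2/M members. Mcm6 went from 22.3 to 60.4 CPM, at 1.44 (1.25 to 1.63), and Pcna from 26.7 to 50.9, at 0.93 (0.74 to 1.12). Pclaf, a PCNA-binding protein made in S phase, went from 115 UMIs to 1, and Tyms, Rrm2, Mcm2 and Mcm3 were also at least 2-fold lower. So 5 of 11 measured were lower and 1, Mcm6, was higher, beside 8.52% of genes lower and 15% higher. The summed ratio of 0.11 (0.02 to 0.20) changed sign when scaled to the median gene (-0.02), by TMM (-0.05) or with unnamed cluster 22 added (-0.01).

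In endothelial-like cells (120 and 130 cells) both groups were lower at 8 weeks. Of 11 G2/M members measured, 6 were at least 2-fold lower, beside 2.69% of 6216 genes lower (6.77% were higher), with a median of -1.22 against 0.18 for all genes. Top2a went from 81.8 to 23.7 CPM (-1.79), Cdk1 from 60.6 to 22.4 (-1.44) and Mki67 from 79.2 to 47.8 (-0.73). The count of 6 rests on 220 UMIs or fewer per gene at P10. It was 0 after thinning, where the same minimum was kept on smaller sums and limits how many are measured, and 15 without a minimum. Of 8 S members Pclaf alone was 2-fold lower, from 46.5 to 5.36 CPM, while Pcna stayed at 81.4 and 82.3. The summed S ratio was -0.49 (-0.63 to -0.35).

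Hypertrophic chondrocyte-like cells, a class known to have left the cell cycle, held no G2/M member with 100 UMIs over both ages. Their summed G2/M level was 37.8 CPM at P10 and 38.2 at 8 weeks, a ratio of 0.02 (-0.33 to 0.36). They are set below beside the other classes as one that should hold few dividing cells, but 8-week tendon fibroblast-like cells stood lower (17.5 CPM) and at P10 1 hypertrophic cell held 33 of the 162 UMIs. Pcna went from 24.0 to 47.8 CPM (0.99), Mcm7 from 10.3 to 21.5 (1.07) and Mcm6 from 16.6 to 30.8 (0.89) in the same cells. Of these 3 measured members 1 was past 2-fold, beside 14.1% of 6155 genes higher and 7.86% lower.

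**Figure D2:**
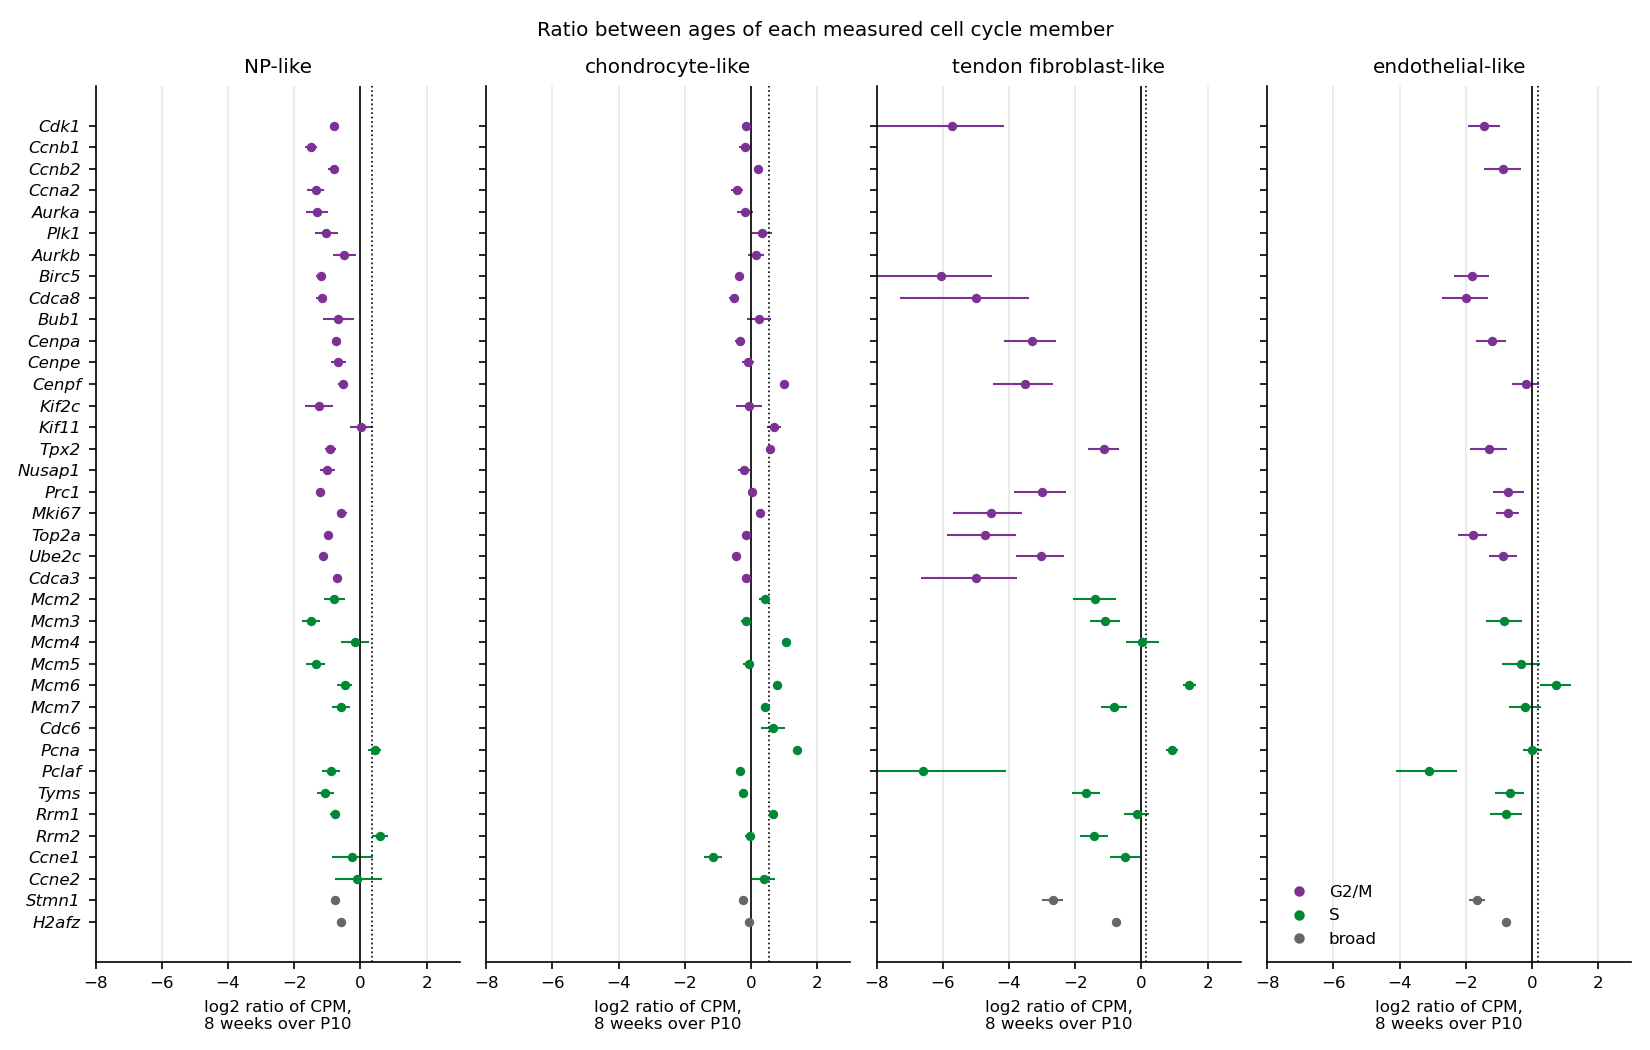
Log2 ratio of CPM, 8 weeks over P10, for each measured member in 4 classes, with G2/M members in purple, S members in green, Stmn1 and H2afz in grey, bars as exact 95% intervals of the ratio (some run past the left edge of the axis), the solid line at 0 and the dotted line at the median of all genes. NP-like G2/M members lie between -1.49 and 0.02 and tendon fibroblast-like ones between -6.07 and -1.14, while Pcna and Mcm6 lie above 0 in chondrocyte-like and tendon fibroblast-like cells, and the sum of chondrocyte-like G2/M members changes sign with the grouping of the cells.

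Stmn1 and H2afz were kept apart as the members listed as broadly expressed. Stmn1 (stathmin, which destabilises microtubules, chr4:134468320-134473843) went from 214 to 126 CPM in NP-like cells (-0.76), from 49.3 to 7.70 in tendon fibroblast-like cells (-2.68) and from 273 to 86.3 in endothelial-like cells (-1.66), and was at 88.4 and 74.7 in chondrocyte-like cells (-0.24). It was thus below 0 in all 4 classes. H2afz (the histone variant H2A.Z, chr3:137864487-137866922) was seen in 55.4% of P10 cells and 52.4% of 8-week cells after thinning. Its ratio was between -0.78 and -0.06 in the same 4 classes.

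**Figure D3:**
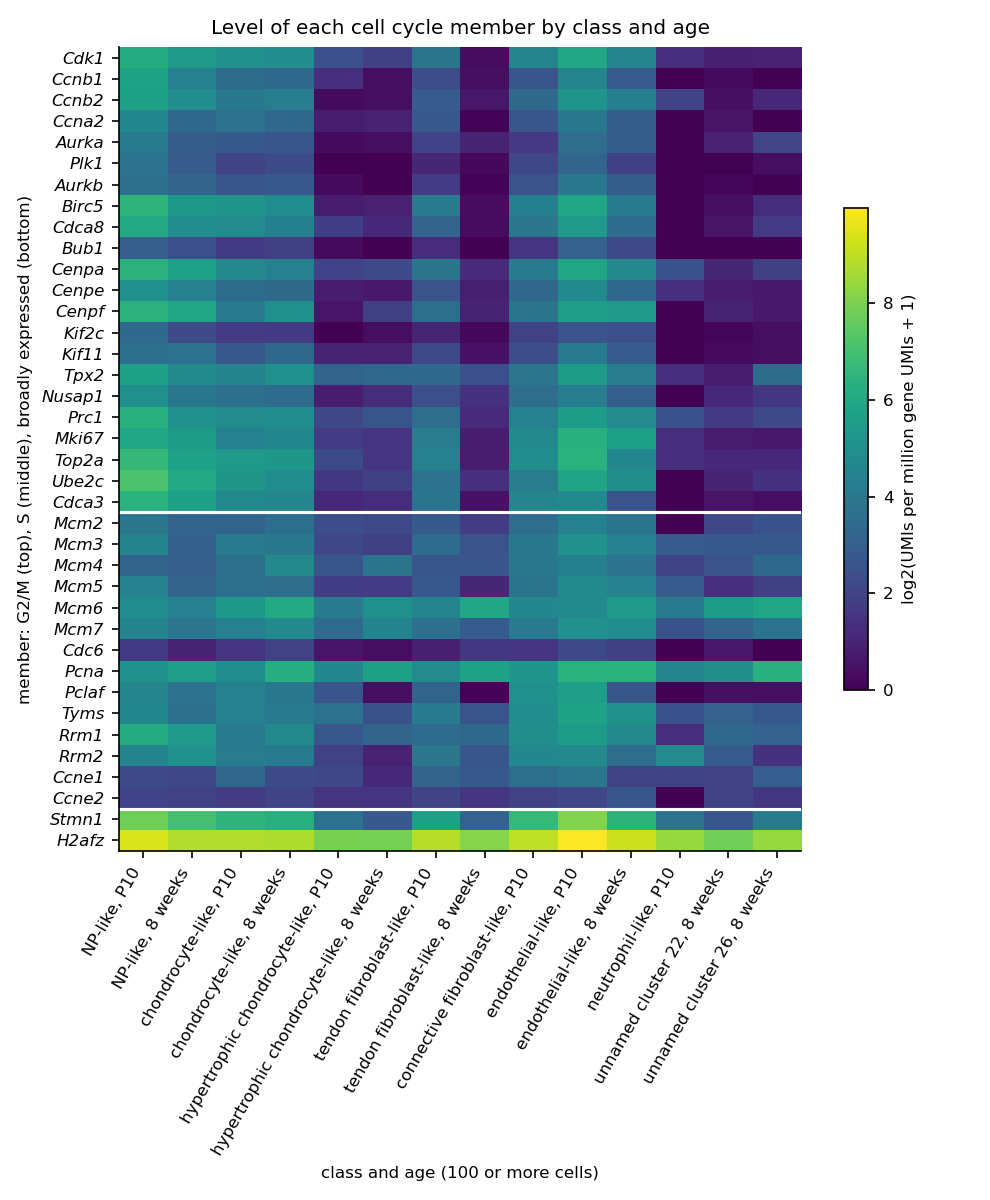
Level of each of the 38 members as log2(UMIs per 1000000 gene UMIs + 1), in every class or unnamed cluster with at least 100 cells at an age, with G2/M members at the top, S members in the middle and Stmn1 and H2afz at the bottom. Read along rows, Top2a is 99.7 CPM in NP-like cells at P10 and 0.75 in tendon fibroblast-like cells at 8 weeks, whereas Pcna is present in all columns.

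Levels do not say how many cells divide, so each cell was thinned at random to 3000 UMIs and called G2/M-marked when it held UMIs of at least 3 different G2/M members, and S-marked with at least 4 different S members. In NP-like cells 41 of 298 (13.8%, 10.1 to 18.2) were G2/M-marked at P10 and 124 of 2104 (5.89%, 4.93 to 6.99) at 8 weeks. In chondrocyte-like cells the shares were 285 of 4913 (5.80%, 5.16 to 6.49) and 70 of 1957 (3.58%, 2.80 to 4.50). In both classes the intervals of the ages did not overlap, but for chondrocyte-like cells this depends on the grouping, since the 8-week share was 5.40% with coarser clusters and 5.26% with a stricter doublet limit. Unthinned, the 4 shares were 25.1%, 11.7%, 9.25% and 6.68%, so the values depend on depth while their order did not.

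Few cells lay near the limit of the G2/M mark. At 8 weeks 29 NP-like cells held 2 G2/M members and 15 held 3, against 100 with 5 or more, and in the P10 chondrocyte-like cells these numbers were 47, 31 and 227. Beside a share of 0 the limit given is 3 counts of the total. Of the hypertrophic chondrocyte-like cells 0 of 107 were marked at P10, with a limit of 2.80%, and 0 of 125 at 8 weeks, with a limit of 2.40%, at median depths of 41045 and 27597 UMIs before thinning against 17803 and 15449 in NP-like cells. For Top2a alone, 10.7% of P10 NP-like cells and 4.23% of 8-week ones had a UMI after thinning, against 0 of 107 and 0 of 125 hypertrophic cells. Mki67 was not absent from the hypertrophic cells, which before thinning held 10 UMIs at P10 (2.33 CPM) and 6 at 8 weeks (1.79 CPM). Of the thinned NP-like cells 6.38% and 4.33% had an Mki67 UMI.

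Tendon fibroblast-like cells had 22 of 829 marked (2.65%, 1.67 to 3.99) at P10. At 8 weeks 0 of 612 were, and this count of 0 allows a share of up to 0.490%. Endothelial-like cells had 20 of 114 (17.5%) and 8 of 122 (6.56%). The Pax7 cluster had 15 of 55 marked (27.3%) at P10. Of all G2/M-marked cells at P10, 68.7% were chondrocyte-like and 9.88% NP-like, and these classes made up 72.0% and 4.37% of the thinned cells. At 8 weeks 59.0% of the marked cells were NP-like, a class that then made up 35.2% of the cells.

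With its limit of 4 members the S mark picked out fewer cells. Among NP-like cells they numbered 12 of 298 (4.03%) at P10 but 25 of 2104 (1.19%) at 8 weeks, against 109 of 4913 (2.22%) and 46 of 1957 (2.35%) chondrocyte-like cells. Many were G2/M-marked as well, namely 6 of the 12 at P10 and 22 of the 25 at 8 weeks in NP-like cells, and 75 of 109 and 30 of 46 in chondrocyte-like cells. In endothelial-like cells 2 of 4 and 1 of 4 were. The S mark rests more on cells near its limit: of 8-week NP-like cells 22 held 3 S members, 12 held 4, 4 held 5 and 9 held 6 or more, and of P10 chondrocyte-like cells 74, 44, 39 and 26 did. The 2 marks have different limits, so their shares do not compare the phases.

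Marked cells sat in a few clusters. Among P10 chondrocyte-like clusters, cluster 1 had 16.5% marked and a G2/M level of 952 CPM, and the 5 others had between 0.795% and 4.27%. Among 8-week ones, cluster 21 had 10.2% marked and 787 CPM, cluster 19 1.44%, and cluster 25 0 of 673 cells. Cluster 1 counts the replication-dependent histone genes Hist1h2ap and Hist1h3d among its leading genes, although these genes and the 38 were left out of the clustering. Cluster 25 shows the split between the 2 gene groups most plainly: its G2/M level was 31.2 CPM, beside 38.2 in hypertrophic cells, while its S level was 314 CPM with Pcna at 76.6.

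The 8-week NP-like cells were as uneven. In cluster 9, led by Sostdc1 and Hopx, 9.14% of 985 cells were marked, and in cluster 20, led by Inmt, 1 of 811 (0.123%). The 52 thinned cells of cluster 8, the main NP-like cluster at P10, held 29 marked cells (55.8%) at 8 weeks against 14% at P10, so at 8 weeks this cluster gathers marked cells. Without it the 8-week NP-like share was 4.63%.

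**Figure D4:**
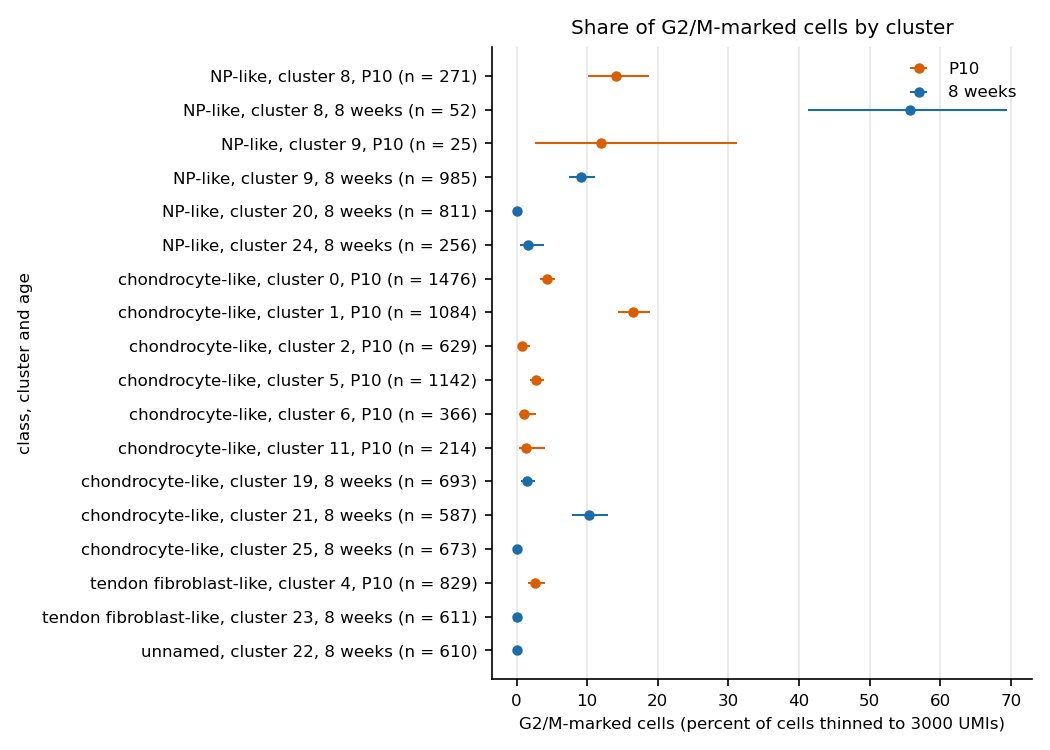
Percent of cells thinned to 3000 UMIs that held UMIs of at least 3 G2/M members, for each cluster of the NP-like, chondrocyte-like and tendon fibroblast-like classes and unnamed cluster 22, with P10 in orange, 8 weeks in blue, the number of thinned cells beside each name and exact 95% binomial intervals. Clusters 9 and 21 hold most marked 8-week cells at 9.14% and 10.2%, clusters 20 and 25 hold 0.123% and 0, and cluster 8 reaches 55.8% of 52 cells.

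NP-like cells were above chondrocyte-like cells in G2/M members at P10 and less so at 8 weeks. At P10, 21 of 22 members were at least 2-fold higher, beside 20.6% of 12199 genes, and only Ccna2 fell short at 0.95. Cenpf (83 against 15.6 CPM) was at 2.41 and Ccnb1 at 2.39, and the summed ratio was 1.57 (1.53 to 1.60), against a median of 0.24 for all genes. At 8 weeks 4 of 22 were (Ube2c, Cenpa, Cdca3 and Ccnb1), beside 16.6% of 12594 genes, a share near that background. The summed ratio was then 0.69 (0.66 to 0.72), and between 0.29 and 1.0 in the alternatives.

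On the CPM scale the S members had this order at P10 and the opposite one at 8 weeks. Their sums were 293 CPM in NP-like and 220 in chondrocyte-like cells at P10, a ratio of 0.42 (0.35 to 0.48), and 213 and 312 at 8 weeks, a ratio of -0.55 (-0.59 to -0.51). The median of all genes was 0.24 at P10 and 0.17 at 8 weeks, and TMM factors would take 0.37 off the P10 ratio. The P10 ratio was thus little above that of other genes, and Rrm1 held 486 of the 2068 S UMIs of P10 NP-like cells. At P10 Rrm1 alone was at least 2-fold higher in NP-like cells (68.9 against 16.2 CPM) and Ccne1 lower, beside 20.6% of genes higher and 15% lower. At 8 weeks Mcm4, Mcm6, Cdc6 and Mcm3 were at least 2-fold lower in NP-like cells, with ratios from -1.81 to -1.02, beside 16.6% of genes lower. Against tendon fibroblast-like cells, all 20 G2/M members measured were at least 2-fold higher at P10, beside 21.4% of 9041 genes, and all 22 at 8 weeks, beside 31.5% of 11653. Of those 22, Bub1 had 0 UMIs in the tendon fibroblast-like cells, so its ratio is a bound. Of the S members, 5 of 12 were at least 2-fold higher than in tendon fibroblast-like cells and 1 lower at P10, beside 21.4% of genes higher and 10.7% lower, with a summed ratio of 0.98. At 8 weeks 7 of 13 were higher and 1 lower, beside 31.5% and 9.14%, with a summed ratio of 0.41.

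Comparing G2/M-marked with unmarked cells of the same class shows what else goes with these members. The G2/M members chose the cells and are no result here, but the S members did not. In 8-week NP-like cells the S members summed to 945 CPM in 124 marked cells and 143 in 1980 unmarked cells, a log2 ratio of 2.73 (2.67 to 2.79), and 11 of 13 were at least 2-fold higher, beside 7.18% of 11096 genes. At P10 they summed to 604 and 206 CPM (1.55, 1.42 to 1.68), with 7 of 10 higher, beside 4.14% of 6115 genes. The chondrocyte-like ratios were 2.57 at P10 (13 of 14 higher, beside 9.21%) and 2.49 at 8 weeks (12 of 13, beside 8.03%). The tendon fibroblast-like ratio at P10 was 2.94 (9 of 9, beside 8.02%) and the endothelial-like 1.36 (2 of 4, beside 2.05%). None of the S members was 2-fold lower in marked cells, beside 3.04% of genes lower at P10 and 3.78% at 8 weeks in NP-like cells, 6.24% and 11.1% in chondrocyte-like cells, and 5.71% and 1.75% in P10 tendon fibroblast-like and endothelial-like cells.

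The S members differed widely among themselves in this respect. In 8-week NP-like cells Rrm2 had 324 CPM in marked and 3.59 in unmarked cells, a ratio of 6.50 (6.25 to 6.76). Ccne1 was at 3.25, Rrm1 at 2.41 and Mcm5 at 2.40. Mcm6, with 31.8 and 18.7 CPM, was at 0.76, Mcm4 at 0.93 and Pcna, with 97.7 and 40.9 CPM, at 1.26. Outside the S members, Stmn1, with 1248 and 18.2 CPM in the same cells, was at 6.10 and H2afz at 3.40. In 8-week chondrocyte-like cells Rrm2 was at 5.44 and Mcm6 at 0.25 (0.01 to 0.48). Pclaf was at 5.35 in NP-like and 5.98 in chondrocyte-like cells at 8 weeks. In 8-week NP-like cells most Rrm2 UMIs (1245 against 142) and Pclaf UMIs (418 against 106) were thus in marked cells, and most UMIs of each of the other 11 S members measured were in unmarked cells, as with Rrm1 (595 against 1155), Pcna (375 against 1618) and Mcm6 (122 against 742).

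That can be seen directly in cells with neither mark. In unmarked chondrocyte-like cells (4594 at P10, 1871 at 8 weeks) Pcna went from 23.2 to 65.1 CPM, at 1.49 (1.40 to 1.58), and Mcm6 from 36.3 to 64.2, at 0.82. In unmarked tendon fibroblast-like cells Pcna was at 1.05 and Mcm6 at 1.53. In unmarked endothelial-like cells Pcna was at 0.03 (-0.31 to 0.37). The higher 8-week levels of Pcna and Mcm6 in chondrocyte-like and tendon fibroblast-like cells were thus present without the marked cells. Both genes count toward the S mark, so they helped to choose these cells. The median of all genes was 0.56 in the whole chondrocyte-like class and 0.13 in the tendon fibroblast-like class. After thinning Pcna was seen in 20.5% of 8-week chondrocyte-like cells, 14.7% of tendon fibroblast-like and 13.6% of hypertrophic ones, against 3.42%, 0.33% and 0 for Top2a. In cells with neither mark the G2/M sum of NP-like cells went from 161 to 59.6 CPM (-1.43). That of chondrocyte-like cells was at 0.39 and that of tendon fibroblast-like cells at -0.54. The G2/M members chose these cells, so these sums depend on the limit of the mark and are no result.

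How high a marked cell stood was compared in a list of 38 other G2/M genes that did not choose the cells. They summed to 3396 CPM (3305 to 3490) in marked NP-like cells at P10 and 4929 (4859 to 5000) at 8 weeks, and to 3992 and 5902 in marked chondrocyte-like cells. The share of marked NP-like cells was thus lower at 8 weeks while the level within them was not.

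The companion lists of the pathway, chosen like the members with earlier results known, were counted in the same comparisons. The counts between the ages in NP-like cells stand beside 3.05% of 11327 genes lower and 15.2% higher, with a median of 0.36. Between the ages in NP-like cells, 3 of 37 measured other G2/M genes were at least 2-fold lower (median -0.48; Hmgb2 -0.24, Smc4 0.20, Cks2 -0.48) and none higher. Of 32 other S-phase genes 8 were lower (median -0.49) and none higher. Of 6 G1 cyclins and kinases Ccnd2 was lower, going from 105 to 45.0 CPM (-1.23), while Ccnd1 was at 0.62 and Cdk4 at -0.66. Of 7 CDK inhibitors, Cdkn1c (p57, known for holding cells out of the cycle) was lower, from 103 to 4.02 CPM (-4.68), Cdkn2d was lower (-1.29), Cdkn2a was higher (1.49) and Cdkn1a was at -0.05. Of 15 E2F, pocket protein and mitotic factor genes 3 were lower and 1, Rbl2, higher. Cdkn1c was also far lower at 8 weeks in chondrocyte-like cells (-3.19) and tendon fibroblast-like cells (-4.07), where the G2/M sums were at -0.04 and -3.39.

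Within NP-like cells some inhibitors were higher in the marked cells. At 8 weeks 4 of 7 were at least 2-fold higher, beside 7.18% of 11096 genes higher and 3.78% lower: Cdkn2c (p18) with 198 against 28.9 CPM (2.78), Cdkn2a (2.69), Cdkn2d (2.64) and Cdkn1c (1.41), and Cdkn1a was at 0.96. At P10 Cdkn2c was at 2.60 and Cdkn2d at 1.91. In 8-week chondrocyte-like cells Cdkn2c was at 3.42 too, but Cdkn1a was at -0.94 and Cdkn1c at -1.27, so the sign of both differed between the classes, without a test of that difference. The G1 cyclins and kinases did not follow the mark as a list in 8-week NP-like cells: their sum was at -0.16, with Ccnd2 at -1.91 and Cdk2 at 1.12. In 8-week chondrocyte-like cells their sum was at 0.60, with 3 of 6 at least 2-fold higher and 0 lower, beside 8.03% of 10973 genes higher and 11.1% lower. Foxm1, a transcription factor of G2/M genes, had 74.2 and 2.10 CPM in marked and unmarked 8-week NP-like cells.

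Over all other genes, those most above unmarked cells in marked NP-like cells were further mitotic genes, Sapcd2, Pimreg and Cdkn3 at 8 weeks (8.68, 8.14 and 6.93) and the replication-dependent histone Hist1h2ap, Pimreg and Iqgap3 at P10. The lowest at 8 weeks included Inmt, with 84.4 against 677 CPM (-3.0), Ndnf (-2.53) and Wnt16 (-2.43), and Inmt (-3.82) and Ndnf (-2.48) were among the 8 lowest at P10 as well. NP markers were not all equal in the 2 kinds of cell: Car3 was lower in marked cells at both ages (9854 against 23458 CPM at P10 and 8663 against 19182 at 8 weeks), as was Krt19 (-0.84 and -1.35), whereas Krt8 was at 0.07 and -0.21. Inmt, Wnt16 and Car3 are among the 10 leading genes of cluster 20, where 1 of 811 8-week cells was marked. The part of the clusters in these differences was not tested. In 8-week chondrocyte-like cells the marked ones were lowest in Abi3bp (-8.06), Vcan (-7.44) and Serpine2 (-6.87), of which Vcan is among the 10 leading genes of cluster 25, where no cell was marked.

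Marked cells were deeper than unmarked ones, with medians of 27806 against 17518 UMIs in P10 NP-like cells and 26089 against 16230 at 8 weeks, and had higher doublet scores (0.098 against 0.030, and 0.061 against 0.034). Endothelial markers stood at 40.1 and 34.7 CPM in marked and unmarked P10 NP-like cells and at 72.9 and 76.7 at 8 weeks, and no marked NP-like cell held 10 or more UMIs of the macrophage markers. Without cells carrying markers of another class the NP-like shares were 13.1% and 5.72%. In P10 endothelial-like cells the NP markers summed to 2453 CPM in marked and 1054 in unmarked cells, with Krt8 at 570 and 57.3; 3 of 20 and 16 of 94 cells held 10 or more NP marker UMIs, and without cells carrying markers of another class 11 of 70 (15.7%) were marked. Their part in the results was not tested. The transcribed reporter element WPRE4 was at 1304 against 2816 CPM in marked and unmarked NP-like cells at P10 (-1.11, -1.18 to -1.04) and at 1734 against 2609.6 at 8 weeks (-0.59), while the tdTomato sequence itself, with 22 and 118 UMIs in marked cells, had ratios whose intervals include 0.

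Across cells the G2/M members went together more than the S members did. Over the 6820 thinned P10 cells the mean Pearson correlation of log levels of a G2/M member with the other G2/M members ran from 0.193 for Bub1 to 0.451 for Birc5, and over the 5982 8-week cells from 0.224 for Bub1 to 0.528 for Ube2c. The mean of an S member with the other S members ran from 0.052 for Mcm4 to 0.20 for Pclaf at P10. At 8 weeks it ran from 0.037 for Mcm4 to 0.169 for Pclaf. The mean with the G2/M members was 0.001 and 0.003 for Mcm6, 0.041 and 0.030 for Pcna, and at most 0.20 and 0.301, for Rrm2. Stmn1 stood with the G2/M members, at 0.430 and 0.489. These values are descriptions over cells that share a library and a depth. The gene most like Top2a among the members was Stmn1 at P10 (0.618) and Mki67 at 8 weeks (0.649), and the one most like Pcna was Pclaf at both ages (0.159 and 0.125). Of cells with a Ccna2 UMI, 78.9% at P10 and 73.8% at 8 weeks also had a Top2a UMI, but of cells with a Pcna UMI only 12.8% and 5.66% did, against 4.96% and 2.99% of all cells.

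**Figure D5:**
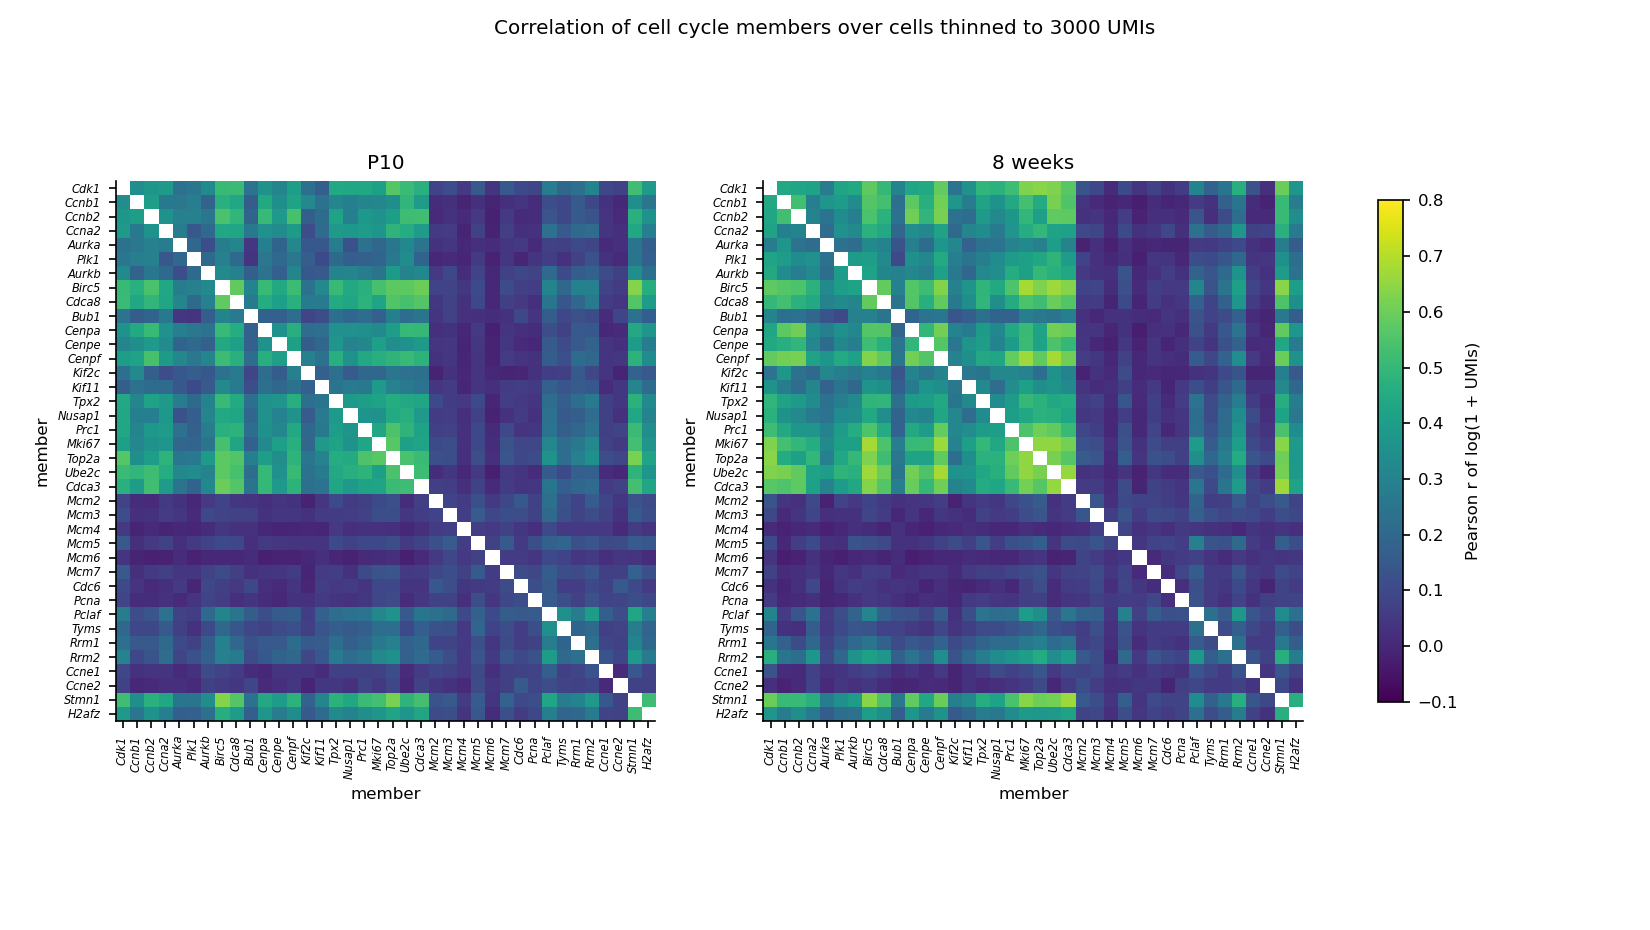
Pearson correlation of log levels between each pair of the 38 members over cells thinned to 3000 UMIs, 6820 at P10 (left) and 5982 at 8 weeks (right), with members in the order G2/M, S, Stmn1 and H2afz and the diagonal left blank. The G2/M members form 1 block at both ages, the strongest S partner of that block is Rrm2 (mean 0.20 and 0.301), and Mcm6 (0.001 and 0.003) and Pcna (0.041 and 0.030) stay near 0.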

How the data were processed

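The deposited matrices hold raw UMI counts from 10x droplet libraries of whole discs, 1 matrix per age, whole numbers per the file headers, which give software version 3.1.0. The submitters' processing notes name Cell Ranger 3.1.0, Seurat 3, mm10 and GRCm38, without a stated role. The other deposited files, naming barcodes and genes, were used as labels only. Barcodes carry no sample, so each age is 1 library. The members, lists and tests were chosen with earlier results of these data known.

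Kept were cells with 500 or more genes, 1000 or more UMIs and no more than 15% of UMIs from mitochondrial genes (6999 of 7690 barcodes at P10, 6481 of 7597 at 8 weeks). Scrublet removed 139 8-week cells (2.145%). At P10 it called 0, so doublet calling has not worked there, and 190 kept cells scored above 0.25, of which 23 were G2/M-marked. Both libraries were clustered together with scanpy 1.11.5 in Python 3.11.15 (2000 variable genes, 30 components, 15 neighbours, Leiden resolution 1). Left out of the variable genes were the 38 members, 5 companion lists, replication-dependent histones, genes correlated with the members at 0.2 or more, Tagln, hemoglobin and mitochondrial genes and sex-linked transcripts. Markers of 19 classes gave names, with at least 3 markers needed.

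Summed counts were scaled per 1000000 gene UMIs. Intervals were Poisson for levels, Clopper-Pearson for shares (3 counts of the total as the limit beside a 0) and conditional binomial for ratios. Thinning used seed 7. The scripts were tested on simulated data. TMM factors came from edgeR 4.0.16 in R 4.3.3, which made no test. Gene positions came from GENCODE for GRCm38 and promoters from RefSeq GRCm38.p6. By the rule for named genes, all 38 members were accounted for, and each comparison gave the 3 members per phase with most UMIs, Stmn1, H2afz, Mki67, Top2a, Cdk1 and Pcna, up to 3 per companion list, and 8 genes at each end between marked and unmarked cells. Other members and list genes were named after their values were seen.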

Additional observations from a re-analysis of the deposited data

Results flagged for a closer look

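The summed level of the 14 S members had a different sign in different classes. The log2 ratio of 8 weeks over P10 was -0.46 in NP-like and -0.49 in endothelial-like cells, and 0.51 in chondrocyte-like, 0.50 in hypertrophic chondrocyte-like and 0.11 in tendon fibroblast-like cells. The difference between the classes was not tested, since each age is 1 library. In the members themselves, Pcna was above 0 in 4 of the 5 classes and level in the endothelial-like one, and Mcm6 was below 0 in NP-like cells alone. Scaled to the median gene, the chondrocyte-like and tendon fibroblast-like sums were -0.05 and -0.02, and with a doublet score limit of 0.25 the hypertrophic sum was -0.38.

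In the matrices of exogenous sequences, which were used here for the reporter alone, the CRE sequence had 7 UMIs in kept P10 cells and 4 in kept 8-week cells. No Cre-free group was available to set these against, and the EGFP sequence had 0 UMIs at both ages.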

How the results depend on the processing

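No paired analysis was possible because the barcodes of a matrix carry no sample or replicate number. Leaving out a replicate was not possible for the same reason. Of 191 values of the main comparisons under alternatives, 107 stayed close, 74 moved and 10 changed sign, and of 182 others 119, 62 and 1 did. Except where stated, the cause of a shift was not tested. Of 22 G2/M members 11 reached 100 UMIs in tendon fibroblast-like cells, 11 in endothelial-like cells and 0 in hypertrophic cells, so the others there could not be compared alone.

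The chondrocyte-like G2/M ratio between the ages (-0.04) was 0.37 at clustering resolution 0.5, 0.0052 at resolution 2, 0.21 with each library clustered alone, 0.073 with cell cycle genes kept in clustering, 0.37 with a doublet score limit of 0.25, -0.15 with a 10% mitochondrial limit, -0.27 after thinning to 3000 UMIs, -0.60 with the median gene at 0 and -0.71 with TMM. Its S ratio (0.51) was 0.54 with libraries clustered alone, 0.36 with cell cycle genes kept, 0.46 with the mitochondrial limit, 0.66 thinned, -0.053 with the median gene at 0 and -0.17 with TMM. The NP-like G2/M ratio (-0.92) was -0.98 with the doublet limit, -0.81 thinned, -1.28 with the median gene at 0, -1.19 with TMM and -0.82 without cells carrying markers of another class. Its S ratio (-0.46) was -0.82 with the median gene at 0 and -0.73 with TMM, and its count of 10 lower members was 3 thinned and 18 with the median gene at 0. No direction changed in these NP-like sums.

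The tendon fibroblast-like G2/M ratio (-3.39) was -3.73 with libraries clustered alone and -2.83 thinned, and its S ratio (0.11) 0.21 and 0.23. That S ratio was -0.019 with the median gene at 0, -0.047 with TMM and -0.012 with cluster 22 added. Its count of 11 lower members was 0 thinned, 0 with a minimum of 300 UMIs and 21 with no minimum, because that sets how many are measured. At resolutions 0.5 and 2, with cell cycle genes kept, with the doublet limit and with the mitochondrial limit at most 2 cells kept this name at 8 weeks, so no value is given. The endothelial-like G2/M ratio (-1.17) was -1.0 with the doublet limit, -1.44 thinned, -1.35 with the median gene at 0 and -1.40 with TMM, its S ratio (-0.49) -0.67 and -0.71 under the last pair, and its count of 6 was 0 thinned, 0 at 300 UMIs and 15 with no minimum. The hypertrophic S ratio (0.50) was -0.38 with the doublet limit.

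The NP-like over chondrocyte-like G2/M ratio at P10 (1.57) was 1.43 with cell cycle genes kept, 1.70 with the doublet limit, 1.33 with the median gene at 0 and 1.20 with TMM, and its count of 21 stayed between 14 and 21. At 8 weeks (0.69) it was 0.29 at resolution 0.5, 0.63 at 2, 0.47 with libraries alone, 0.41 with cell cycle genes kept, 0.35 with the doublet limit, 0.79 with the mitochondrial limit, 1.00 thinned, 0.52 with the median gene at 0 and 0.64 with TMM. Its count of 4 was 0 at resolution 0.5, 1 with libraries alone, 1 with cell cycle genes kept, 1 with the doublet limit, 8 thinned and 2 with the median gene at 0.

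The marked share of P10 NP-like cells (13.8%) was 18.2% thinned to 6000 UMIs and 25.1% unthinned. That of 8-week NP-like cells (5.89%) was 7.65% at 6000 UMIs, 7.27% with 1 member fewer, 11.7% unthinned and 4.63% without cluster 8. That of P10 chondrocyte-like cells (5.80%) was 6.64% with cell cycle genes kept, 5.14% at 2000 UMIs, 6.87% at 6000, 6.76% with 1 member fewer and 9.25% unthinned. That of 8-week chondrocyte-like cells (3.58%) was 5.40% at resolution 0.5, 5.26% with the doublet limit, 4.62% at 6000 UMIs, 4.70% with 1 member fewer and 6.68% unthinned. The S ratio of marked over unmarked NP-like cells at P10 (1.55) was 1.25 at 6000 UMIs, 1.24 with 1 member more and 1.91 with thinned sums, and at 8 weeks (2.73) 2.65, 2.80 and 2.53. The alternatives without cells carrying other markers, without cluster 8, with cluster 22 added and with called doublets kept were chosen after seeing the data.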

Other observations

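In classes with few cells the G2/M sums rest on a few cells, and their Poisson intervals do not cover that. The 3 highest cells held 58.8% and 67.1% of the G2/M UMIs of unnamed cluster 14 at P10 and 8 weeks, 79.1% in P10 Schwann-like cells, 65.8% and 73.7% in mural-like cells and 74.8% and 77.4% in osteoblast-like cells. In endothelial-like cells they held 27.5% and 54.1%. Unnamed cluster 14, led by the myeloid and lymphoid genes Lyz2, Plac8 and Cd52, had G2/M sums of 1799 CPM (1688 to 1914) in 60 P10 cells and 712 (607 to 831) in 38 8-week cells, with S sums of 1149 and 797. After thinning, 8 of 47 of its P10 cells (17.0%) and 3 of 28 of its 8-week cells (10.7%) were G2/M-marked. Schwann-like cells at P10 had a G2/M sum of 517 CPM (466 to 573) in 63 cells, with 5 of 52 marked (9.62%). Mural-like cells went from 578 CPM (516 to 645) in 50 cells to 72.6 (43.7 to 113) in 32, while their S sums were 311 (266 to 361) and 401 (328 to 485). Osteoblast-like cells had 211 CPM (176 to 252) in 29 cells and 99.1 (84.5 to 115.5) in 94.

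Of the 8-week clusters left unnamed, cluster 22, led by Clec3b and Angptl7, had a G2/M sum of 14.3 CPM (11.9 to 17.0) in 648 cells, with 0 of 610 thinned cells marked, which allows a share of up to 0.492%. Its Mcm6 was seen in 13.3% of the thinned cells. Cluster 26, led by Ibsp and Cxcl13, had 34.0 CPM (28.1 to 40.8) and an S sum of 198 (183 to 213) in 248 cells, with 0 of 245 thinned cells marked (up to 1.22%), and Pcna was seen in 19.2% of its thinned cells. In both clusters no thinned cell was G2/M-marked while these S members were seen, as in cluster 25 of the chondrocyte-like cells.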
